A study of Mus musculus with 12 samples.

Results

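Matrix proteases, cathepsins and their inhibitors were examined in activated mast cells in which the RNA-binding proteins Regnase-1 and Regnase-3 had been targeted by siRNAs. The genes were taken by name, as every probe of a NanoString immune panel beginning with Adam, Mmp, Timp, Serpin, Cts or Plau. This gave 31 of the 754 endogenous and reference genes measured. Bone marrow-derived mast cells (BMMCs), primary cells grown from bone marrow precursors in IL-3, came from 3 mice; the study's methods give C57BL/6 animals. The cells received siRNAs against Zc3h12a (si12A, encoding Regnase-1), against Zc3h12c (si12C, encoding Regnase-3), against both (si12A+C), or the control siGLO, with 3 libraries per group and 1 per mouse. Every library, controls included, was made from cells exposed to IgE and antigen for 2 h, beginning 48 h after transfection, so neither unstimulated nor untransfected cells enter these comparisons. The assay counts color-coded probes bound to transcripts in 50 ng of RNA, without amplification, in a bulk culture, where fewer cells of a type and less RNA per cell cannot be told apart. Neither targeted transcript was analyzed here, so the extent of depletion was not measured from these counts.

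The proteases in this set cut extracellular matrix, growth factors and receptors at the cell surface, or degrade proteins in lysosomes. ADAM and ADAMTS enzymes and matrix metalloproteinases (MMPs) use a zinc ion and are held in check by TIMP proteins, whereas serpins trap serine proteases, among them the plasminogen activators. Mast cells are known for granules filled with chymase, tryptase, carboxypeptidase A3 and cathepsin G, which are released when IgE receptors are cross-linked. Regnase-1 is an RNase that degrades inflammatory mRNAs.

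The siRNA mixture named si12A, which was present in both groups where Serpinb2 counts were low, combined 4 sequences against Zc3h12a, given here as the study lists them.
Zc3h12a siRNA 1: gcagagatcctgtcttaca
Zc3h12a siRNA 2: gagcgaggccacacagata
Zc3h12a siRNA 3: gaaatgtacgtatggaatc
Zc3h12a siRNA 4: gaaagggctggtgtatata

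Of the 31 genes, 16 were detected, meaning a count above the mean plus 2 SD of the negative control probes of the same library in at least 3 of the 12 libraries. This limit lay between 15.3 and 25.9 counts, and the libraries held 447310 to 819974 counts in all. Adam8, Adamts1, Mmp9, Timp3, Ctsd, Ctsg, Plau, Plaur and Serpinb6a were among the 10 above it in all 12 libraries. The other 6 were near the limit: Adamts9 passed it in 8 libraries, Mmp8, Serpinb2 and Serpinb9 in 7 each, Mmp12 in 5 and Ctsl in 4. Because detection is one condition for testing, the 16 do not stand for the whole set.

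The remaining 15 genes had 1 to 19 counts per library, and 14 of them were above the limit in no library. Most ADAMTS enzymes were in this group, namely Adamts2, Adamts3 and Adamts14, which trim procollagens, Adamts4, an aggrecanase, and Adamts12 and Adamts17; Adamts3 passed the limit in 1 library. The interstitial collagenases Mmp1a and Mmp13, the stromelysin Mmp10 and Mmp19 were not detected either, nor were Adam19, the cathepsins Ctsa and Ctss, and the serpins Serpinb7 and Serpine3. By family, detection covered 1 of 2 ADAM, 2 of 8 ADAMTS and 3 of 7 MMP genes, the only TIMP on the list, 3 of 5 cathepsins, both urokinase genes and 4 of 6 serpins. Serpinb6a and Serpinb9 have close mouse paralogs, and whether their probes also bind those was not examined.

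Markers of the labeled cell type were abundant: all 8 mast cell markers were above background in all libraries, and their scaled counts summed to 131198 to 210235 per library. A scaled count is the probe count divided by the library's TMM (trimmed mean of M-values) size relative to the mean library. Of 13 monocyte and macrophage markers 3 were detected, and 8, among them Csf1r and C1qa, were above the limit in no library. Of 8 neutrophil markers 2 were detected, with Ly6g, Elane, S100a8 and S100a9 among those never above it.

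Each siRNA group was compared with siGLO, and the depleted groups with each other, by edgeR's quasi-likelihood F test over 496 detected or reference genes. Calls required an absolute log2 fold change above 0.5 and a Benjamini-Hochberg adjusted p no higher than 0.05. The study's methods give the same fold change limit with P of at most 0.05 and name no adjustment. Counts of calls here are therefore not comparable with the study's. Without a term for the mouse this fit called 0 of the 16 detected members and 0 of all 496 genes (0%) in each of the 6 comparisons. At an unadjusted p under 0.05 the members were 1 of 38 genes in si12A against siGLO, 0 of 2 genes in si12C and 2 of 33 genes in si12A+C. DESeq2 and limma-trend, fitted without the mouse, also called 0 members, and over all genes they called at most 3 and 0 in a comparison. The fold changes below are from the same edgeR fit with the mouse as a block and TMM scaling, unless another is named. The direction of small changes depended on the scaling: with the block the median of all genes in si12A against siGLO was 0.01 by TMM, -0.38 by positive controls and 0.33 by well-detected reference genes. Of the 48 log2 fold changes of the 16 members against siGLO, 22 had another sign under at least 1 of the 3 other scalings tried.

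The log2 fold change largest in size among the detected members was that of Serpinb2. This gene encodes plasminogen activator inhibitor type 2, a serpin that inhibits urokinase and is known from activated monocytes and macrophages. With the block Serpinb2 fell in si12A+C against siGLO and against si12C, and it was the only member called in any comparison. Its raw counts, in the order of mice 1, 2 and 3, were 20, 22 and 34 with si12A and 53, 19 and 50 with si12C. With si12A+C they were 15, 15 and 23, against 58, 18 and 42 with siGLO. All 3 counts of mouse 2 in si12C, si12A+C and siGLO lay under their background limits, as did mouse 1 in si12A and si12A+C. Mice 1 and 3 were thus above background where the si12A mixture was absent, and the signal of mouse 2 was near the limit in all 4 groups.

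**Figure D1:**
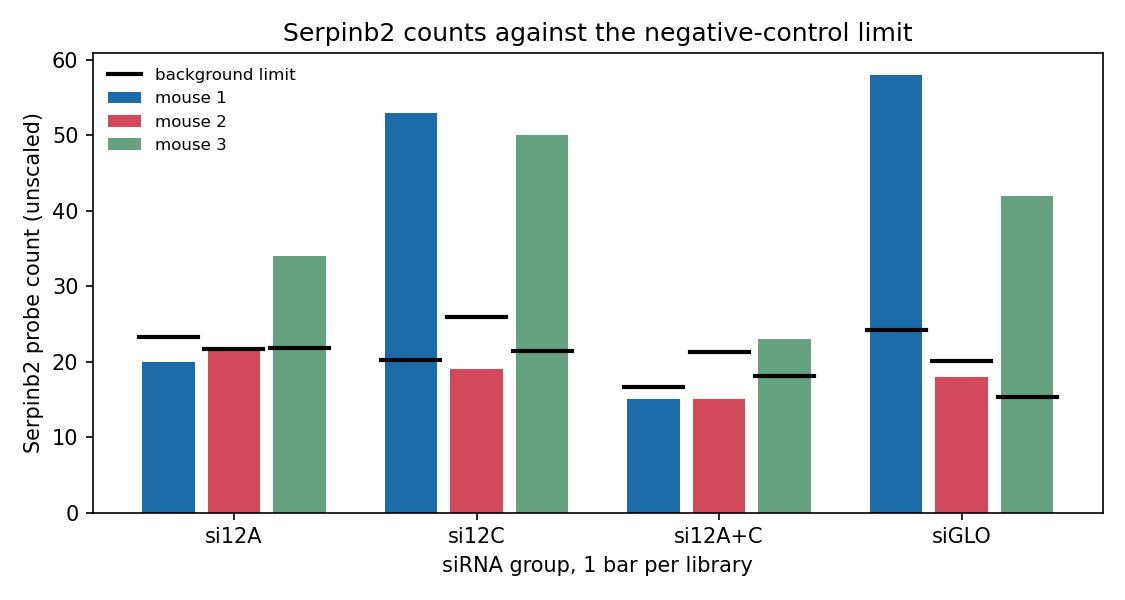
Unscaled Serpinb2 probe counts (y axis) in the 12 libraries by siRNA group (x axis), 1 bar per library colored by mouse. Black lines give each library's background limit, the mean plus 2 SD of its negative controls; 7 of 12 bars pass it, and the si12A+C bars reach 15, 15 and 23 counts against 58, 18 and 42 with siGLO.

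Scaled to library size, Serpinb2 averaged 17.95 ± 1.86 counts with si12A+C and 41.9 ± 12.6 with siGLO (SD, n = 3). The log2 fold change was -1.25 ± 0.28 (SE, adjusted p = 0.0195), lower in 3 of 3 mice. Over all genes this comparison had 6.05% called, and Serpinb2 was the 1 member of 16. Against si12C, which averaged 39.8 ± 11.02, the log2 fold change of si12A+C was -1.17 ± 0.28 (adjusted p = 0.0406), again lower in 3 of 3 mice; 3.02% of all genes were called there. In the fit without the block the adjusted p was 0.293 and 0.415 in these comparisons. In mouse 2 the counts behind both directions lay under their background limits.

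Both calls rested on few counts. Against siGLO the call was lost without mouse 1 (-0.92, adjusted p = 0.0852), without mouse 3 (-1.22, adjusted p = 0.172) and when the mean of the negative controls was subtracted first (-1.87, adjusted p = 0.0653), and it was kept without mouse 2 (-1.49, adjusted p = 0.0280). Leaving out single libraries, it was lost without si12A+C of mouse 1 or 3 (adjusted p = 0.0761 and 0.0788) and without siGLO of mouse 1 or 3 (adjusted p = 0.104 and 0.0546). Against si12C it was lost without mouse 1 or mouse 3 (adjusted p = 0.0845 and 0.282), without any 1 of the si12A+C libraries (0.0901 to 0.137), without si12C of mouse 1 or 3 (0.164 and 0.160) and with negative controls subtracted (0.119). Over all 17 fits with the block the log2 fold change against siGLO ran from -1.87 to -0.92, with 7 calls, and against si12C there were 4 calls in 17 fits. The call against si12C was also lost by positive controls, all reference genes and well-detected reference genes (adjusted p = 0.108, 0.169 and 0.0790). Limma-trend with the block did not make it either. DESeq2 with the block gave Serpinb2 no adjusted p.

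With si12A alone Serpinb2 averaged 22.3 ± 4.7 scaled counts, and its log2 fold change was -0.93 ± 0.27 against siGLO (adjusted p = 0.0543) and -0.85 ± 0.27 against si12C (adjusted p = 0.0610). Neither passed the test, although by TMM all 3 mice were lower in both. In mouse 2 the raw count was higher with si12A than with siGLO or si12C, where it lay under the background limit. Scaled by well-detected reference genes, mouse 2 was higher with si12A than with siGLO, by 0.39 on the log2 scale. The values of si12C and siGLO differed by -0.08 ± 0.25, and those of si12A+C and si12A by -0.31 ± 0.30 (adjusted p = 0.988 and 0.689). The interaction, which asks whether the change with both mixtures differs from the sum of the separate changes, was -0.23 ± 0.39 for Serpinb2 (adjusted p = 0.897). These comparisons share the siGLO libraries or the si12C libraries and are not independent of each other.

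By TMM the 3 detected monocyte and macrophage markers were all lower with si12A than with siGLO. With si12C or si12A+C they did not share a direction. All 13 markers, 8 of them above the limit in no library, were also summed as scaled counts. These sums, which hold background counts, ran from 194 to 238 with si12A and 206 to 342 with si12C. They ran from 199 to 318 with si12A+C and 252 to 363 with siGLO. Cx3cr1, a chemokine receptor of monocytes, was called lower with the block in si12A (-0.85 ± 0.18, adjusted p = 0.0180) and in si12A+C (-1.06 ± 0.19, adjusted p = 0.00449) against siGLO. In si12C it was at -0.61 ± 0.18 (adjusted p = 0.275). Adgre1, which encodes the macrophage antigen F4/80, was at -0.76 ± 0.25 in si12A, 0.01 ± 0.23 in si12C and 0.21 ± 0.23 in si12A+C (adjusted p = 0.0676, 0.997 and 0.718). Mrc1, the third marker, was at -0.44 ± 0.29 in si12A, 0.14 ± 0.28 in si12C and -0.09 ± 0.29 in si12A+C, and was not called. By all reference genes Cx3cr1 was called in neither si12A nor si12A+C (adjusted p = 0.125 and 0.0657). By positive controls and by well-detected reference genes it was called in both. The part of other cell types in the Serpinb2 values was not tested.

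The start of Serpinb2 is shown because it is the member that was called: the 250 bases before the more upstream of its starts in the RefSeq promoter table, GRCm38.p6 chr1:107511173-107511422 on the plus strand, with the letters of a TATA box (TATAAA) in capitals, beginning 29 bases before the start.
Serpinb2: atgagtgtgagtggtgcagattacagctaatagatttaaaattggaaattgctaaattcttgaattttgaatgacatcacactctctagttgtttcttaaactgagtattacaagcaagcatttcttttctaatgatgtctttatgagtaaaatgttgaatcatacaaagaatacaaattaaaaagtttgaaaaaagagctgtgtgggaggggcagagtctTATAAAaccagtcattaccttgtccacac
The annotated gene begins further upstream, at base 107500892. TATAAA on either strand was found in 4 of the 16 such windows of the detected members, those of Serpinb2 (whose windows overlap), Adamts1 and Ctsg, and in 12.4% of all 32851 windows.

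By TMM scaling the urokinase genes were higher with si12A than with siGLO in every mouse, but neither passed the test, and by positive controls both were lower in mice 2 and 3, with log2 fold changes of -0.08 for Plau and -0.03 for Plaur. Plau encodes urokinase, the plasminogen activator, and Plaur its receptor at the cell surface. Plaur had 349, 394 and 417 scaled counts with si12A in mice 1, 2 and 3, and 388, 265 and 386 with si12C. With si12A+C it had 315, 439 and 556, against 288, 264 and 346 with siGLO. The si12A+C and siGLO values overlapped, and the difference was smallest in mouse 1. The log2 fold change of si12A+C against siGLO was 0.53 ± 0.16 (adjusted p = 0.0712), and that of si12A against siGLO was 0.37 ± 0.16 (adjusted p = 0.157), and the si12A comparison had 5.44% of all genes called. Of 19 fits with the block, 6 called Plaur in si12A+C against siGLO, including the one without mouse 1 (0.75, adjusted p = 0.00407) and DESeq2 (0.53, adjusted p = 0.0342).

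Plau had 650, 1286 and 620 scaled counts with si12A in mice 1, 2 and 3, and 501, 896 and 512 with si12C. It had 479, 713 and 491 with si12A+C, against 525, 852 and 588 with siGLO. Mouse 2 was the highest within each group, and the groups overlapped. Between si12A+C and si12A the log2 fold change was -0.55 ± 0.11 (unadjusted p = 0.000368, adjusted p = 0.155), lower in 3 of 3 mice. In that comparison edgeR called 0 of 496 genes (0%), with 70 at an unadjusted p under 0.05, DESeq2 with the block called 3, Plau among them (-0.57, adjusted p = 0.00313), and limma-trend with the block called 0. Plau was at 0.33 ± 0.11 in si12A against siGLO (adjusted p = 0.0788) and at 0.40 ± 0.11 in si12A against si12C (adjusted p = 0.0560), where 4.84% of all genes were called. The Plau interaction was -0.48 ± 0.16 (unadjusted p = 0.0111, adjusted p = 0.543), in a test that called 0 of 496 genes (0%), with 40 at an unadjusted p under 0.05 and 0 by DESeq2 or limma-trend.

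**Figure D2:**
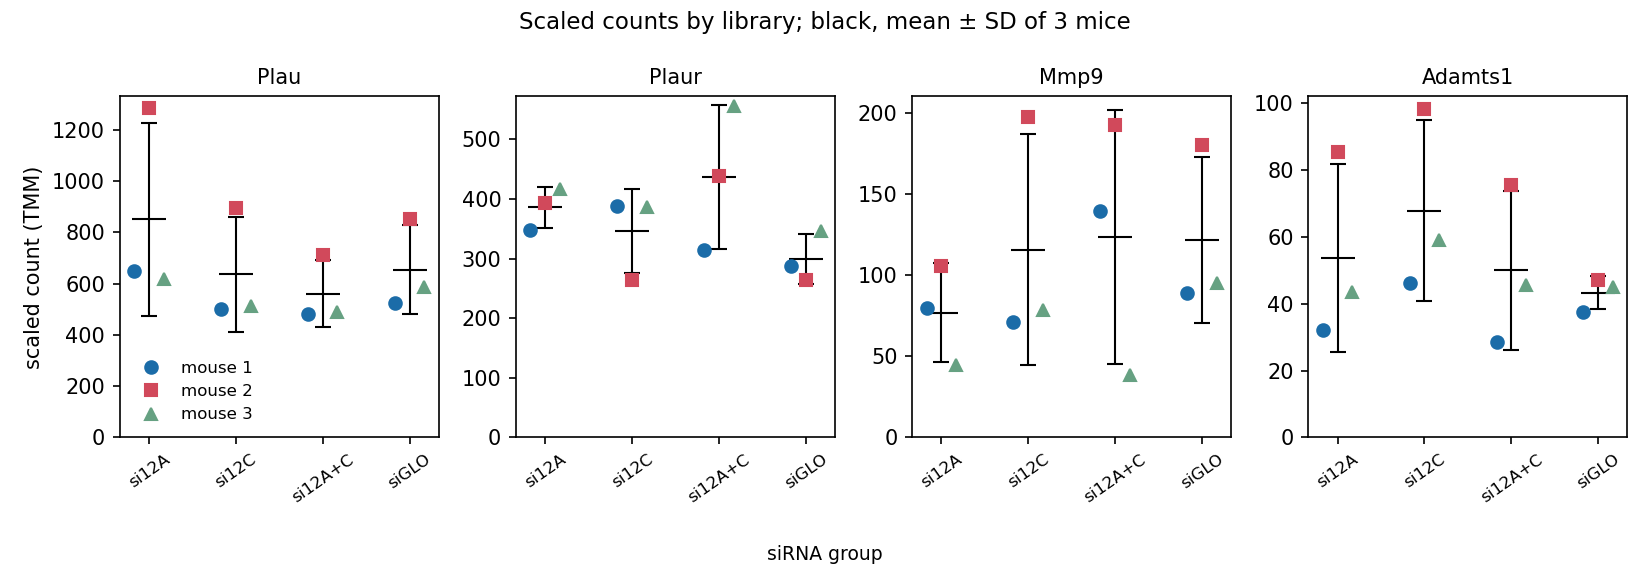
Scaled counts (y axes, starting at 0) of Plau, Plaur, Mmp9 and Adamts1 by siRNA group (x axes), with 1 point per library colored by mouse and the mean ± SD of 3 mice in black. Mouse 2 is the highest point of every group for Plau, Mmp9 and Adamts1. For Plaur the si12A libraries span 349 to 417 and the siGLO libraries 264 to 346, a difference that was not called.

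The window of Plaur in the same table is shown because it holds the letters of an AP-1 motif: GRCm38.p6 chr7:24462233-24462482, plus strand, with TGACTCA in capitals, beginning 69 bases before the start. The annotated gene begins further upstream, at base 24460937. AP-1 is a transcription factor of the Fos and Jun families.
Plaur: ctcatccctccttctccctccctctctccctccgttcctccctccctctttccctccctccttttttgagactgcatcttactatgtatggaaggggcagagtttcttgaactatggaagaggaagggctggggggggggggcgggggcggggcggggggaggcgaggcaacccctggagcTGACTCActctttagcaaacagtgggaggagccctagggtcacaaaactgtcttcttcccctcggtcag
A window of Mmp12 held the reverse complement of these letters. Counting both strands, 2 of the 16 windows of the detected members held the motif, beside 4.46% of all windows.

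Serpinb6a and Serpinb9 were not called in any comparison. Serpinb6a, whose human counterpart inhibits cathepsin G, ranged over the 3 comparisons with siGLO from 0.09 to 0.14 on the log2 scale. Serpinb9, an inhibitor of granzyme B, had log2 fold changes of 0.04 ± 0.30 in si12A, 0.34 ± 0.30 in si12C and 0.32 ± 0.29 in si12A+C against siGLO.

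Among the metalloproteinases, Mmp9, or gelatinase B, which cuts basement membrane collagen, had the lowest mean with si12A. It had 80.1, 106 and 44.8 scaled counts with si12A in mice 1, 2 and 3, and 71.3, 198 and 78.5 with si12C. With si12A+C it had 140, 193 and 38.4, against 89.0, 181 and 95.5 with siGLO. The groups overlapped, and mice 1 and 3 changed in opposite directions between si12A+C and siGLO. In si12A against siGLO the log2 fold change was -0.67 ± 0.30 (adjusted p = 0.157), lower in 3 of 3 mice by TMM, but in 2 of 3 by all reference genes. It was called in 2 of 18 fits with the block, one of them without mouse 1 (-0.91, adjusted p = 0.00913). Mmp8, a collagenase of neutrophils, and Mmp12, an elastase of macrophages, were near the background limit and lay between -0.07 and 0.33 on the log2 scale against siGLO in the 3 groups. Timp3, a tissue inhibitor that stays bound to the matrix, averaged 630 ± 59.4 scaled counts with si12A, 702 ± 246 with si12C, 628 ± 92.7 with si12A+C and 658 ± 206 with siGLO, and its fold changes against siGLO ran from -0.04 to 0.09.

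Adamts1, a protease of the proteoglycans versican and aggrecan, was highest on average with si12C. It had 32.0, 85.3 and 43.4 scaled counts with si12A in mice 1, 2 and 3, and 46.1, 98.3 and 59.1 with si12C. It had 28.6, 75.6 and 45.6 with si12A+C, against 37.6, 47.2 and 45.1 with siGLO. The si12C and siGLO libraries overlapped by the single value of mouse 1 in si12C. The log2 fold change of si12C against siGLO was 0.56 ± 0.21 (adjusted p = 0.531), higher in 3 of 3 mice, in the comparison with 0.403% of all genes called, and without siGLO of mouse 2 it was 0.29 (adjusted p = 0.895). Adamts9, which cuts the same proteoglycans, lay between 0.07 and 0.25 against siGLO in the 3 groups. Adam8, a protease at the surface of leukocytes, had log2 fold changes of 0.07 ± 0.15 in si12A, -0.24 ± 0.15 in si12C and -0.19 ± 0.15 in si12A+C against siGLO.

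By TMM scaling the detected cathepsins were lower on average than siGLO in all 3 depleted groups, which share that control, and none passed the test; by well-detected reference genes Ctsd was at 0.21, Ctsg at 0.03 and Ctsl at 0.12 in si12A, and Ctsd at 0.08 and Ctsl at 0.02 in si12A+C. Ctsd, the main aspartic protease of lysosomes, averaged 4689 ± 60.5 scaled counts with si12A, 4438 ± 280 with si12C, 4295 ± 280 with si12A+C and 5122 ± 747 with siGLO. Its log2 fold changes were -0.12 ± 0.10, -0.20 ± 0.10 and -0.25 ± 0.10, with adjusted p from 0.181 to 0.820. Ctsg, cathepsin G, a serine protease of mast cell and neutrophil granules, averaged 326 ± 96.1 with si12A, 309 ± 115 with si12C, 324 ± 118 with si12A+C and 404 ± 150 with siGLO. By TMM it was lower in 3 of 3 mice in each depleted group, at -0.28 ± 0.13, -0.38 ± 0.13 and -0.31 ± 0.13 (adjusted p = 0.158, 0.449 and 0.181). Ctsl, a cysteine protease of lysosomes, had log2 fold changes between -0.27 and -0.17 at 4 to 33 counts per library.

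**Figure D3:**
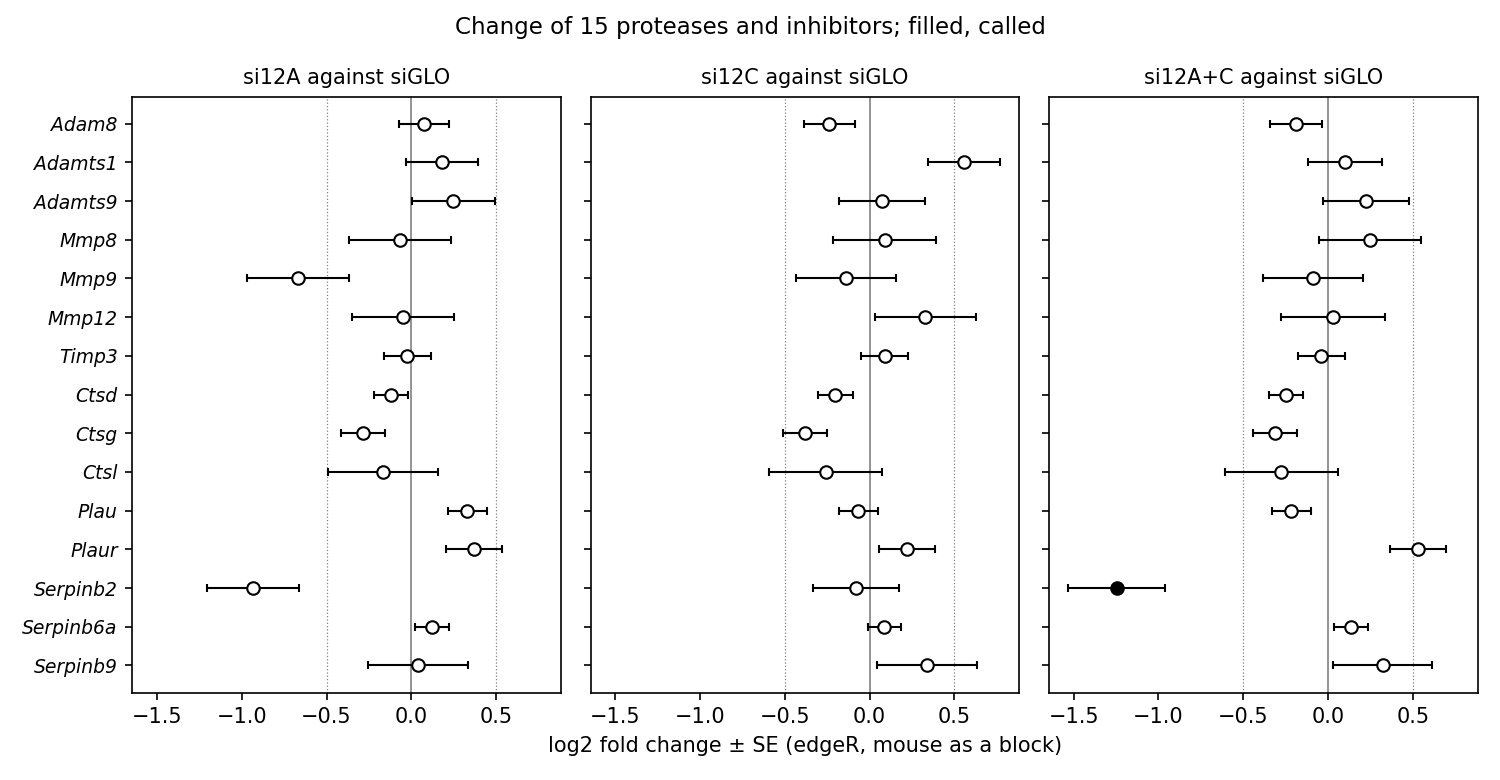
Log2 fold change against siGLO (x axes, edgeR with the mouse as a block; bars, SE) of 15 detected genes (y axis) in si12A, si12C and si12A+C. Filled points are called, dotted lines mark log2 values of -0.5 and 0.5, and Serpinb2 in si12A+C (-1.25 ± 0.28) is the only filled point.

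Seen over the whole set, the members did not move together in the siRNA comparisons. With the block the median log2 fold change of the 16 detected members was 0.01 in si12A, 0.08 in si12C and -0.0044 in si12A+C against siGLO, and over all 496 genes it was 0.01, -0.01 and 0.01. In the same comparisons 8, 9 and 8 of the 16 members were above 0. At an unadjusted p under 0.05 there were 5 of 16 members (31.25%) in si12A, 3 (18.75%) in si12C and 4 (25%) in si12A+C, beside 29.6%, 6.05% and 20.6% of all genes.

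For related genes outside the name rule, counts of calls stand beside 0% to 6.05% of all genes called with the block in a comparison. In lists as small as these, 0 calls cannot be told apart from that share. Of 11 other proteases on the panel 7 were tested and 0 were called with the block in any of the 6 comparisons. They include the mast cell granule proteases Cma1 (chymase), Cpa3 (carboxypeptidase A3) and Tpsb2 (a tryptase), whose log2 fold changes against siGLO were between -0.24 and 0.11. Other inhibitors and regulators (5 tested of 5), lysosomal genes (6 of 6) and matrix components (3 of 15) also had 0 calls in the 6 comparisons. Among the matrix genes the laminin gene Lamb3 had the largest value in si12A against siGLO, -1.68 ± 0.62 (adjusted p = 0.0930). It was above background in 6 of 12 libraries, and in no si12A library. Among the regulators Anxa1, which encodes annexin A1, was at 0.62 ± 0.25 in si12A+C (adjusted p = 0.160). All Anxa1 counts of mouse 2 were under the limit. By TMM the other tested genes of these lists also failed the call with the block. By positive controls Cma1 (-0.63), Cpa3 (-0.51) and Lamb3 (-2.09) met it in si12A against siGLO (adjusted p = 0.0198, 0.0337 and 0.0296). Cpa3 also met it against si12C (-0.55, adjusted p = 0.0386). In those comparisons 95 and 52 of all 496 genes were called lower. By well-detected reference genes Anxa1 met it in si12A+C against siGLO and si12C (0.90 and 0.91, adjusted p = 0.0299 and 0.0287). There 69 and 75 of all genes were called higher.

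The members differed more between mice than between siRNA groups. A mouse here stands for a replicate number, so animal, culture and any handling shared by its libraries cannot be told apart. In the fit with group and mouse, 11 of 16 detected members (68.75%) differed between the 3 mice at an adjusted p of at most 0.05 in edgeR's test, beside 57.7% of all genes tested. Ctsd, Mmp8, Mmp12, Plaur and Serpinb2 did not pass. The 11 include Ctsl, Serpinb9 and Adamts9, which were detected through mice 1 and 3 alone. The range of the mouse means was wider than the range of the group means in 13 of 16 members (81.25%), and in 66.3% of all genes; the exceptions were Ctsd, Plaur and Serpinb2. The median range over the members was 0.74 between mice and 0.37 between groups on the log2 scale. Over all genes tested it was 0.57 and 0.39.

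Mouse 2 stood at the end of the order in all 11 of these members. Plau was at 915 in mouse 2, against 535 in mouse 1 and 551 in mouse 3. All 4 of these Plau libraries of mouse 2 were above the other 8. Mmp9 and Adamts1 were also highest in mouse 2, with some overlap between libraries.

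Of the 11 members, 7 were lowest in mouse 2. Ctsg was at 207 in mouse 2, against 417 in mouse 1 and 391 in mouse 3, and Timp3 was at 503, against 796 in mouse 1 and 655 in mouse 3. All 4 libraries of mouse 2 were below the other 8 for Ctsg, Timp3, Serpinb6a, Serpinb9 and Ctsl, while Adam8 and Adamts9 overlapped. In mouse 2 all 4 counts of Ctsl, Serpinb9 and Adamts9 were under the background limit. These 3 members passed the detection filter only through mice 1 and 3, where they were higher, so their low place in mouse 2 adds no support. Mouse 2 was likewise the highest or lowest of the mice in 269 of the 286 genes that differed (94.1%), so this position is not particular to the proteases.

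**Figure D4:**
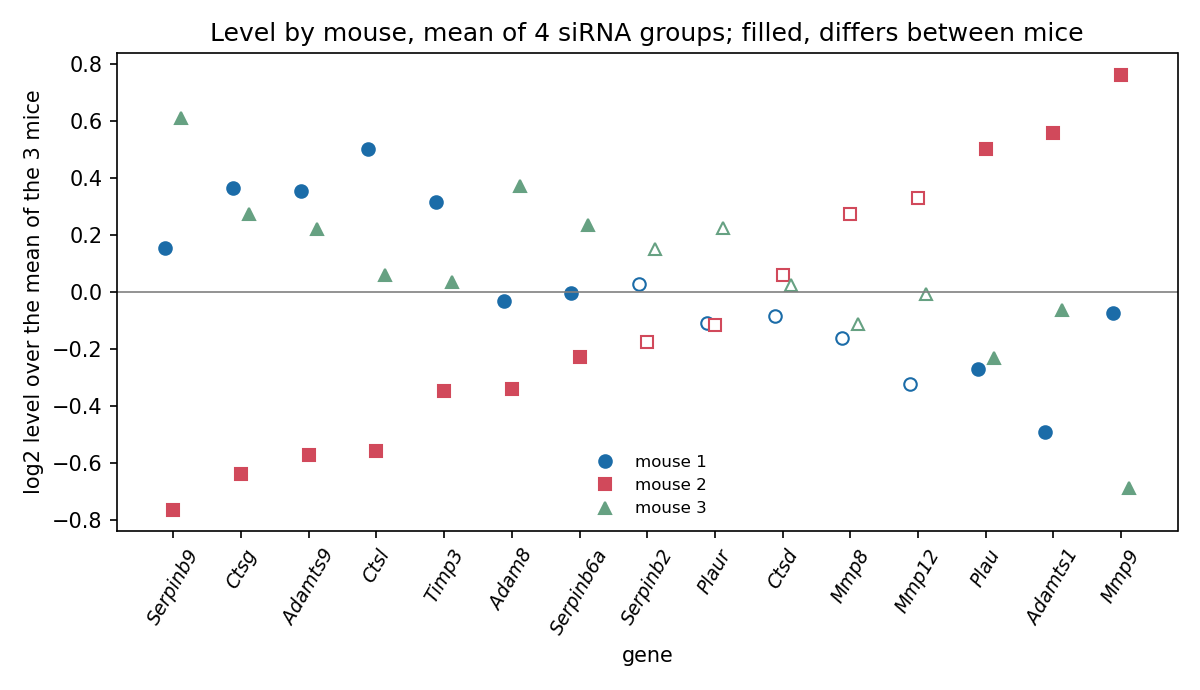
Level in each mouse (y axis, log2 of the geometric mean over the 4 siRNA groups, relative to the mean of the 3 mice) for 15 detected genes (x axis, ordered by the level in mouse 2). Filled symbols mark the 10 of them that differed between mice; mouse 2 is lowest in 7 of these and highest in 3.

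Marker sums moved with the mouse as well. The 8 mast cell markers summed to 183059 to 210235 scaled counts in mouse 2, against 131198 to 174676 in mouse 1 and 154440 to 169447 in mouse 3. Of these markers Cpa3 had 103468 to 130318 in mouse 2, against 58994 to 91180 in mouse 1 and 75449 to 85330 in mouse 3. Cma1 was not higher in mouse 2 (34931 to 41233, against 33610 to 41478 and 36282 to 44246). The sum thus need not speak for all 8 markers. Eosinophil markers summed to 126 to 159 in mouse 2, against 197 to 294 and 189 to 200 in mice 1 and 3. Monocyte and macrophage markers summed to 238 to 363 in mouse 2, against 194 to 252 and 201 to 290. Only 1 of 5 eosinophil and 3 of 13 monocyte and macrophage markers were detected, so background counts enter both sums. Scaling raises such counts most in the smallest libraries. The TMM size relative to the mean library was 0.64 to 0.88 in mouse 2, against 0.94 to 1.19 in mouse 1 and 0.95 to 1.36 in mouse 3. With scaling by the 20 reference genes the median of all genes in mouse 2, relative to mice 1 and 3, was 0.30 on the log2 scale, with TMM 0.04 and with well-detected reference genes -0.19. Among the genes that differed between mice, mouse 2 was highest in 176 and lowest in 50 with all reference genes, and highest in 74 and lowest in 172 with the well-detected ones. With all 20 reference genes 8 members differed between mice, and Adam8, Adamts9, Ctsl and Serpinb6a no longer did, while Mmp12 did. All 11 kept the direction of mouse 2 relative to mice 1 and 3 under the 4 scalings tried. The part of these cell markers in the difference between mice was not tested.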

How the data were processed

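RNA of 12 BMMC samples was measured with version 2 of the NanoString nCounter panel for myeloid innate immunity. The authors deposited unprocessed counts per probe, with no background subtraction or scaling seen in the values, and a log2 table of 325 probes. The methods name nSolver v4.0 and Omics Playground; which step made the log2 table is not given in the sources used here. That log2 table of the authors correlated with the counts in every sample at r of at least 0.980, with column medians of 8.41 to 8.62 and an SD of mouse means of 0.0137, against 0.526 in the counts, and its scaling stays unknown. It lists 9 of the members and served only as an alternative.

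Counts were fitted with edgeR 4.0.16 (R 4.3.3; quasi-likelihood F test, TMM, all 12 samples) over 496 genes: 476 endogenous genes above background in at least 3 libraries and 20 reference genes. SEs were derived from the test, as the size of the log2 fold change over the square root of F. The main design has no mouse term, since the methods name none; the mouse as a block was its alternative. P-values were adjusted within each comparison. Alternatives were DESeq2 1.42.0, limma-trend (limma 3.58.1), scaling by positive controls or reference genes, other filters, subtraction of negative controls, the log2 table and leaving out libraries or mice. Scripts were tested on simulated data. Per-mouse directions used log2 of scaled counts plus 0.5.

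The replicate number pairs the samples: it is shared in sample titles and count headers, and the design names 3 mice. Deviations from the group means correlated at 0.166 to 0.864 over 18 pairs of libraries of the same mouse and at -0.752 to 0.628 over 36 other pairs, and 12 of 12 libraries correlated best with their own mouse. No replicate pair agreed within sampling noise (chi-square per degree of freedom at least 15.0).

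Any of the 31 members may be named, except that 1 detected member is not reported here by name; it is counted in all totals. Values in every sample are given for detected members that were called in either fit, or had an unadjusted p under 0.05 with an absolute log2 fold change above 0.5. The members, gene lists and tests were chosen with earlier results of these data known. Promoter windows are RefSeq's (GRCm38.p6; 13 of 16 detected members matched; Mmp9 and Plau were among those that did not), and siRNA sequences come from the study's supplement.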

Additional observations from a re-analysis of the deposited data

How the results depend on the processing

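The comparisons of Serpinb2, Plaur, Plau, Mmp9 and Adamts1 that were chosen for full values kept their direction under every alternative run for them. Several other log2 fold changes named above turned with the scaling, all with the block. In si12A against siGLO, Plau (0.33) and Plaur (0.37) were at -0.08 and -0.03 with positive controls, and Ctsd (-0.12), Ctsg (-0.28) and Ctsl (-0.17) at 0.21, 0.03 and 0.12 with well-detected reference genes. The main fit, without the mouse, called 0 members in every comparison, so each count below is set against 0. With the replicate block 1 member was lower in si12A+C against siGLO and 1 in si12A+C against si12C (Serpinb2 in both); the block changed no other call of a member. The same 1 and 1 came with the block and no filter, and si12A+C against siGLO also gave 1 lower with limma-trend or positive control scaling, each with the block. Positive control scaling with the block, which moved the median of all genes in si12A against siGLO to -0.38, gave 3 members lower there (Ctsg, Mmp9, Serpinb2) and 2 lower in si12A against si12C (Serpinb2 among them). Scaling by 6 well-detected reference genes with the block, which moved it to 0.33, gave 2 higher in si12A against siGLO (Plau, Plaur), 2 higher in si12A against si12C (Adam8, Plau) and 1 higher in si12A+C against si12C and against siGLO (Plaur). Serpinb2 in si12A+C against siGLO was then at -0.95 (adjusted p = 0.0612), and with all reference genes at -1.06 (0.0657). Plaur was also the 1 member higher in si12A+C against siGLO with DESeq2, all 20 reference genes or the strict filter, each with the block. DESeq2 with the block gave 1 lower in si12A+C against si12A (Plau). The log2 table, with or without the block, gave 1 higher in si12C against siGLO (Adamts1) and 1 lower in si12A+C against si12A (Plau), and without it 1 interaction. Leaving out a mouse or library in turn gave 0 to 1 members higher in si12A+C against siGLO and against si12C, and 0 to 1 lower in si12A against siGLO, si12A against si12C, si12A+C against siGLO and si12A+C against si12C. Over all genes, si12A against siGLO with the block had 9 calls higher and 18 lower, 0 and 95 with positive control scaling, and 120 and 5 with well-detected reference genes. With well-detected reference genes si12A+C against siGLO had 69 and 3, beside 17 and 13 by TMM, and against si12C 75 and 2, beside 6 and 9. The number of members that differed between mice ran from 8 to 12. The causes of these changes were not tested. Counts near 20 limit Serpinb2, Mmp8, Mmp12, Ctsl, Serpinb9 and Adamts9.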
